A study of Homo sapiens with 6 samples.

Results

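The S100 calcium-binding protein genes were described in RNA-seq libraries of the prostate cancer line C4-2B-ENZR, a human line that withstands enzalutamide. The members are 10 genes taken by symbol (S100P, S100A2, S100A4, S100A6, S100A9, S100A10, S100A11, S100A13, S100A14 and S100A16) out of 17356 symbols in the deposited tables. They were selected on family name with their measured signal in NC and siKIF15, the comparison below, already known, so those values are given as a description and no p-value is printed for a member. The 3 libraries labelled NC are titled as control, and what their cells received is not stated in the titles. The 3 labelled siKIF15 are titled as KIF15 knockdown, and an siRNA to KIF15, which encodes a spindle kinesin, is read from the label. All 6 libraries share the same line, whose name marks resistance to enzalutamide, an androgen receptor antagonist. The study's title ties KIF15 to that resistance, and the comparison asks how transcripts differ after its knockdown. Whether replicates were separate cultures is not stated in the labels, so the errors cover the spread of these libraries alone and may be technical.

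S100 proteins are small calcium sensors built from a pair of EF-hand loops, and most act as dimers that expose a binding face when calcium rises. Inside the cell they bind partners such as annexins, myosin and ezrin, and several are released and act as ligands of the receptor AGER (RAGE). Most of their genes lie in a cluster on chromosome 1 among genes of the skin barrier, whereas S100P lies on chromosome 4. In epithelia, several members are known as markers of stratified or transformed tissue.

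The targeted transcript did not bear out the label. KIF15 stood at 366.4, 403.6 and 319 in NC versus 294.8, 333.1 and 363 in siKIF15 (log2 change -0.13 ± 0.14 SE, limma adjusted p = 0.57). Each direction below is therefore that of the libraries labelled siKIF15 against the NC libraries. Values are the authors' signal per gene, adjusted to a common library size as judged from the values. Their sums by library were not equal, at 49460840 to 50063012 in NC and 50360191 to 53157388 in siKIF15. Sequencing depth is unknown, so no counting interval can be given. Luminal prostate markers were abundant in every library, with sums over 10 genes of 299813.8 to 309191.1 in NC and 323654.1 to 344376.6 in siKIF15. On the second principal component of all tested genes, siKIF15 2 and siKIF15 3 lay at opposite ends (36.2 and -48).

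In brief, 9 of the 10 members had a mean signal of at least 1 in at least 1 group and were tested, and each of these had all 3 siKIF15 values above all 3 NC values. S100P and S100A14 were 47.6-fold and 46.2-fold higher, S100A10 and S100A16 4.21-fold and 3.95-fold, S100A9 and S100A4 2.91-fold and 2.72-fold, and S100A11 1.35-fold. These 7 passed the threshold (limma with Benjamini-Hochberg adjustment over 16548 genes at 0.05), and none was lower, also at an unadjusted p under 0.05. Over all genes tested, 18% passed the threshold, 9.66% as higher in siKIF15, 18.3% had every siKIF15 value above every NC value, and 34.8% had no overlap in either direction. The shares without overlap include genes at the floor, such as S100A8, whose values of 0.0 in NC and in siKIF15 3 differ only below the printed digit. Nothing is read from the members' share against this background, because the same contrast was known when they were chosen. The median log2 change (siKIF15 minus NC, on the log2(signal + 1) scale) was 1.69 over the 9 members tested and -0.004 over all genes.

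**Figure D1:**
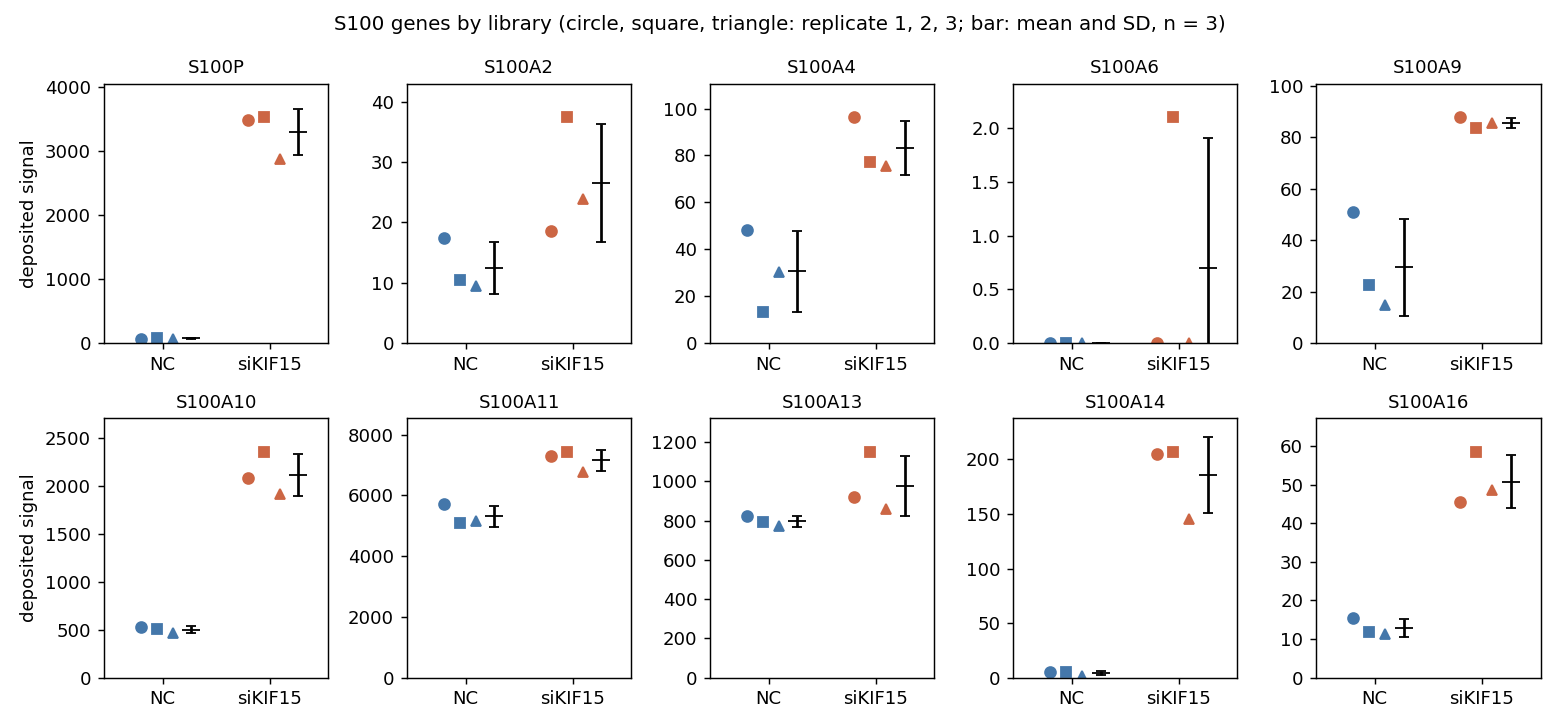
Deposited signal (y axis, linear, from 0) of the 10 S100 genes in the 3 NC (blue) and 3 siKIF15 (orange) libraries, with the mean and SD of each group beside its points. All panels but that of S100A6 show separate groups, from 62.9 to 79.8 against 2880.6 to 3527.4 for S100P down to 771.2 to 824.4 against 857.5 to 1148.3 for S100A13.

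Among the members known as secreted ligands of AGER, S100P had the largest change. S100P, which also binds ezrin and is known from placenta and carcinomas, stood at 62.9, 79.8 and 65.3 in NC versus 3485, 3527.4 and 2880.6 in siKIF15. The groups lay far apart, and siKIF15 3 was the lowest of its group. The means were 69.3 ± 9.15 and 3297.7 ± 362 (SD, n = 3), a log2 change of 5.55 ± 0.13 (SE). S100A9, which pairs with S100A8 to form calprotectin, a main cytosolic protein of neutrophils, was listed at 50.9, 22.6 and 14.9 in NC versus 87.8, 83.6 and 85.6 in siKIF15. Its NC values were scattered, with a coefficient of variation of 64.4%, against 2.44% in siKIF15, and its log2 change was 1.69 ± 0.36. Without NC 1, its ratio of means was 4.58-fold in place of 2.91-fold. S100A4, a metastasis-associated protein that binds nonmuscle myosin, was at 48, 13.2 and 30.3 in NC versus 96.2, 77.4 and 75.4 in siKIF15. NC 1 gave the highest NC value for both S100A4 and S100A9. The log2 change of S100A4 was 1.58 ± 0.37. For both genes the call ended without siKIF15 1, at log2 changes of 1.47 for S100A4 and 1.67 for S100A9, and with a variance model that ignores signal level.

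Among the members known for binding annexins, S100A10 and S100A11 were higher in siKIF15 and S100A6 lay at the floor. S100A10, which binds annexin A2 and has lost the ability to bind calcium, was at 530.7, 507.5 and 466 in NC versus 2076, 2348.3 and 1913.9 in siKIF15. Both groups were tight relative to the gap between them, and the log2 change was 2.07 ± 0.10. S100A11, a partner of annexin A1 known from keratinocytes, was at 5719, 5090.9 and 5151.6 in NC versus 7286.2, 7424.7 and 6757.5 in siKIF15. Its groups did not overlap, and its change was the smallest of the 7 that passed, at 0.43 ± 0.07. S100A6, also called calcyclin, was listed at 0.0 in every NC library versus 0.0, 2.1 and 0.0 in siKIF15 1, 2 and 3. It did not reach the mean signal required for a test. Since some genes that cells generally use also lie at this floor in these files, the value is not read as absence, and no fold is given.

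Among the members known mainly from epithelia, S100A14 went from near the floor to a clear signal. S100A14 stood at 5.2, 5 and 1.8 in NC versus 205.3, 206.6 and 145.7 in siKIF15, a log2 change of 5.28 ± 0.36. All NC values were low, so the 46.2-fold ratio of means rests on a denominator of 4.02 ± 1.89. S100A16, a widely expressed member whose gene lies beside S100A14, was at 15.5, 11.7 and 11.3 in NC versus 45.4, 58.4 and 48.5 in siKIF15 (1.91 ± 0.32). Its groups were separate, with siKIF15 2 the highest library. S100A2, a nuclear member of basal keratinocytes that binds p53, was at 17.4, 10.5 and 9.4 in NC versus 18.5, 37.4 and 23.8 in siKIF15. NC 1 and siKIF15 1 nearly touched, and S100A2 did not pass the threshold, with a log2 change of 1.02 ± 0.40 (95% interval 0.16 to 1.88).

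S100A13, which takes part in the release of FGF1 from cells, did not pass the threshold either. It stood at 824.4, 793.5 and 771.2 in NC versus 922.3, 1148.3 and 857.5 in siKIF15, a log2 change of 0.28 ± 0.11 (95% interval 0.04 to 0.52). The highest library was siKIF15 2, without which the change was 0.16, and without siKIF15 3 it was 0.37 and passed. S100A13 is also uncertain in its counting. In the GENCODE annotation 63.4% of the exon bases of its longest coding transcript are covered by exons of other genes. These are AL162258.1 on the same strand and S100A1 on the opposite strand, and strand-specific counting is not stated. For S100A1, 38.9% of the exon bases are covered, all by genes on the opposite strand, S100A13 among them. Of the 31-base words of the S100A13 transcript, 62% also occur in the overlapping gene AL162258.1. Of those of the S100A11 transcript, 8.33% also occur in transcripts of other genes, among them its pseudogenes S100A11P1 and S100A11P2. For S100P, S100A2, S100A4, S100A6, S100A9, S100A10 and S100A14 no such word occurred in another gene, and for S100A16 0.9% did.

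**Figure D2:**
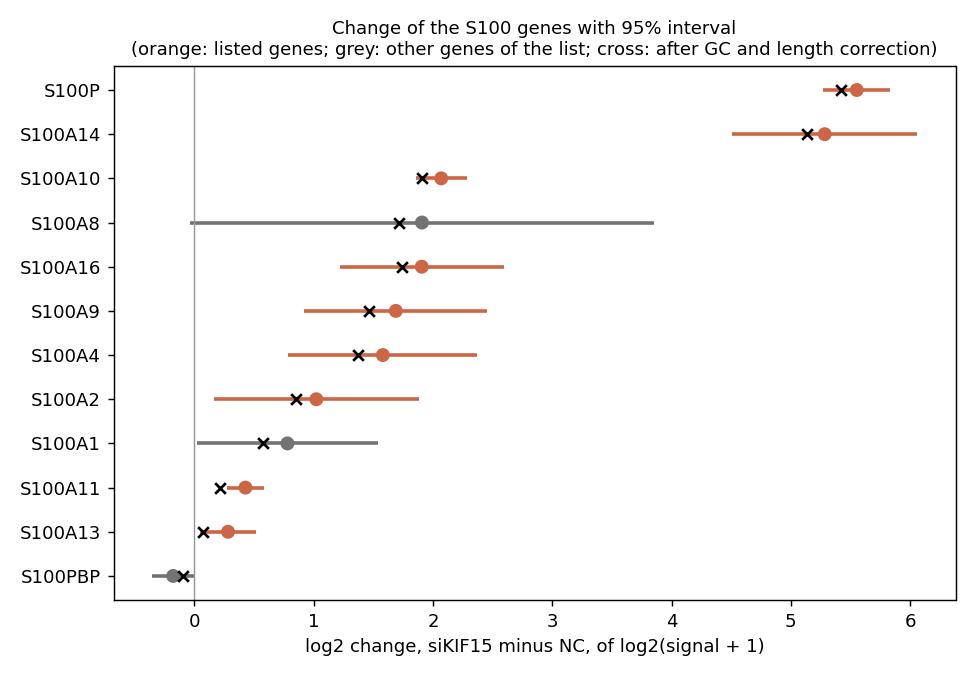
Log2 change of each tested S100 gene (x axis, siKIF15 minus NC on the log2(signal + 1) scale) with its 95% interval, listed members in orange and S100A1, S100A8 and S100PBP in grey, and crosses for the value corrected for GC content and length. S100P at 5.55 and S100A14 at 5.28 stand apart from the other genes, and the crosses of S100A11 and S100A13 lie nearest to 0 among the members, at 0.21 and 0.07.

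Within each group, libraries tended to keep their rank from member to member. NC 1 was the highest NC library for 8 of the 9 tested members and NC 3 the lowest for 6. Within siKIF15, library 2 was the highest for 7 and library 3 the lowest for 6. By the sum of all values, NC 1 and siKIF15 2 were also the highest of their groups and NC 3 and siKIF15 3 the lowest. Over 11407 genes at a mean of 100 or more in 1 group, which are not independent replicates, the deviations of siKIF15 1, 2 and 3 from their group mean had Spearman correlations of 0.54, 0.52 and -0.745 with GC content. With transcript length the correlations were 0.04, -0.64 and 0.53. In NC they lay between -0.30 and 0.20 for GC content and between -0.24 and 0.15 for length. The members' longest coding transcripts are short, from 577 bases (S100A9) to 1279 bases (S100P). After each library was corrected for GC content and length, the same number of members passed (7), and the log2 changes were 5.42 for S100P, 5.14 for S100A14, 1.91 for S100A10, 1.74 for S100A16, 1.46 for S100A9 and 1.37 for S100A4. S100A11 was then at 0.21 in place of 0.43.

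Scaled per kilobase of transcript, the order of the 9 tested members differed between the groups (S100A6, at the floor, is left out). How the signal was adjusted is not stated, and it was taken as not yet scaled by length. The level of S100A13 also carries the doubt on shared bases given above. In NC, S100A11 was highest with a signal per kilobase of 8957.1 ± 583 (SD, n = 3), followed by S100A13 at 1160.9 ± 38.9 and S100A10 at 417 ± 27.3. S100P, S100A9 and S100A4 came next at 54.2 ± 7.16, 51 ± 32.9 and 50.8 ± 29 per kilobase and did not differ beyond their spread. S100A2 at 12.5 ± 4.35 and S100A16 at 11.2 ± 2.03 were also within their spread, and S100A14 was the lowest of the 9 at 3.3 ± 1.55. In siKIF15, S100A11 stayed first at 12047.4 ± 593 per kilobase, and S100P was second at 2578.3 ± 283. S100A10 at 1757.7 ± 183 and S100A13 at 1422.8 ± 223 per kilobase followed. Their SDs overlapped, but S100A10 was above S100A13 in each siKIF15 library. S100A14, S100A9 and S100A4 lay within their spread at 152.6 ± 28.6, 148.4 ± 3.62 and 138.3 ± 19.1, above S100A16 at 44.3 ± 5.89 and S100A2 at 26.6 ± 9.79. S100P was thus below S100A10 and S100A13 in NC and above both in siKIF15.

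**Figure D3:**
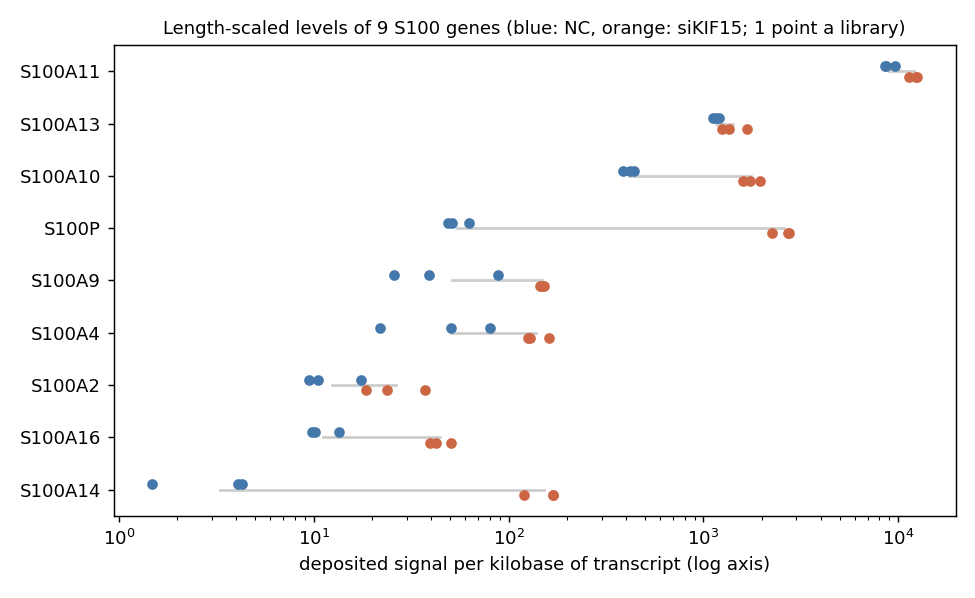
Signal per kilobase of the longest coding transcript (x axis, log scale) for 9 S100 genes, with 1 point per library in NC (blue) and siKIF15 (orange) and a grey line joining the group means. The longest line is that of S100P, from a mean of 54.2 to 2578.3, and the shortest that of S100A13, from 1160.9 to 1422.8. S100A6, at the floor in NC, is not drawn.

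The promoters of genes that rose together are shown so that their starts can be compared. Sequences are the 250 bases before the RefSeq transcript start (GRCh38.p14), 5′ to 3′. They are printed for the 2 members with the largest changes, for S100A10 and for S100A4. S100A16 and S100A9, whose log2 changes were larger than that of S100A4, are not printed. Capitals mark matches to the TATA box (TATAAA) and, in S100A14, to the NF-kappa B motif. For S100A14, and for S100A9 described below, the bases checked after the start were not found in a GENCODE transcript of the gene. For S100P, S100A10 and S100A4 they were found.
S100P, chr4:6693628-6693877, + strand: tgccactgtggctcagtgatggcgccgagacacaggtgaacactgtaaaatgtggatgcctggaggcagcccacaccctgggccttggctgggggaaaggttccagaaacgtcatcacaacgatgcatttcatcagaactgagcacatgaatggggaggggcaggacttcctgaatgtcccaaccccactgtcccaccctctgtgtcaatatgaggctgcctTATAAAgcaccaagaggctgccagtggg
S100A14, chr1:153616326-153616575, - strand: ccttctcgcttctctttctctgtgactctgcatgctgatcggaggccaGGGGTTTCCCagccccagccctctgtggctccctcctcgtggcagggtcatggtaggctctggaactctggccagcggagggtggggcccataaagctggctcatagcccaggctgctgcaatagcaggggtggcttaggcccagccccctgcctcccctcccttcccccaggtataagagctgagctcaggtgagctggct
S100A10, chr1:151993860-151994109, - strand: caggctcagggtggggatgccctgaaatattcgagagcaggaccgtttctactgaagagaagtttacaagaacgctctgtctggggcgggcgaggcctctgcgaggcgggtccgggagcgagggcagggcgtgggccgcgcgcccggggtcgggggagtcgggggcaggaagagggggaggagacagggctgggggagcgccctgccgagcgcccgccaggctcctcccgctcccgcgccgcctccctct
S100A4, chr1:153545807-153546056, - strand: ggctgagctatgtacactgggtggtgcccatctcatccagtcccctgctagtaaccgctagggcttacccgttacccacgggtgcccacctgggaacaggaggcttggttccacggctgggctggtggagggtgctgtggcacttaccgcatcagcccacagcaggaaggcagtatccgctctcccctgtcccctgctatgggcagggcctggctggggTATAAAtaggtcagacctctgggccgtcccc

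The RefSeq table held 14 start windows for the 10 members and 35116 windows in all. On either strand, TATAAA was found in 4 of the 14 windows (S100P, S100A4, S100A9 and S100A13) and in 10.7% of all windows. In S100P and S100A4 its first base lay 28 and 31 bases before the start, in S100A9 and in 1 of the 3 windows of S100A13 29 bases before it. The interferon-stimulated response element, searched as GAAA, any 2 bases and GAAA, was found in none of the 14 windows and in 3.02% of all, and the GAS element TTCNNNGAA in none and in 6.57% of all. The AP-1 motif TGANTCA was found only in a window of S100A2 among the members, 52 bases before the start, and in 6.57% of all windows. The NF-kappa B motif was found in S100A14, 202 bases before the start, and in 9.96% of all windows. The E-box CANNTG was found in 11 of the 14 windows and in 61.8% of all. These matches may overlap one another and are a description of the letters in these windows.

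A further 4 symbols of the family list were in the tables, and none of the 3 tested passed the threshold (limma; 1 of 3, S100A1, at an unadjusted p under 0.05). S100A1, known from muscle, was at 18.1, 14.2 and 12.3 in NC versus 27.8, 21 and 29.9 in siKIF15 (log2 change 0.78 ± 0.36, adjusted p = 0.15). S100A8, the partner of S100A9, was listed at 0.0 in every NC library versus 3.5, 10.3 and 0.0 in siKIF15 (1.91 ± 0.91, adjusted p = 0.17). It was called without siKIF15 3, at a log2 change of 2.84. S100PBP, which is no S100 protein but a nuclear protein that binds S100P, was at 1673.4, 1584.4 and 1491.2 in NC versus 1349.3, 1375.4 and 1473.1 in siKIF15 (-0.18 ± 0.08, adjusted p = 0.17), and it was called at -0.215 without siKIF15 3. S100A3, known from hair, was at 1.8, 0.0 and 0.0 in NC versus 0.0 in every siKIF15 library and was not tested. Other genes of the family, such as S100A7 and S100B, were not analysed here.

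Of 26 receptors and binding partners of S100 proteins tested, ANXA1 rose and HLTF fell, with a median log2 change of 0.01. Over all genes tested, 18% passed in either direction. ANXA1, which encodes the annexin bound by S100A11, was at 33.6, 23.6 and 28.4 in NC versus 76.1, 124.1 and 121.6 in siKIF15. Its groups did not overlap (3.76-fold, log2 change 1.85 ± 0.28, limma adjusted p = 0.00025). ANXA2, the annexin bound by S100A10, was near the floor, at 5.4, 0.1 and 0.9 in NC versus 0.0, 0.0 and 4.1 in siKIF15 (-0.47 ± 0.92, adjusted p = 0.77). HLTF, a chromatin remodeller that the S100A10-annexin A2 complex binds, had overlapping groups, at 6819.2, 6989.4 and 6609.8 in NC and 5060.1, 4555.6 and 6679.6 in siKIF15 (-0.34 ± 0.11, adjusted p = 0.035). Its call ended without each of NC 1, NC 2, NC 3, siKIF15 1 and siKIF15 2 (log2 changes of -0.34, -0.33, -0.37, -0.30 and -0.23) and without an intensity trend (-0.34, adjusted p = 0.24). After correction for GC content and length HLTF was called at -0.14.

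The receptor AGER was at 93.7, 72.4 and 73.8 in NC versus 73.6, 118.8 and 95.9 in siKIF15, with a log2 change of 0.25 (95% interval -0.26 to 0.75). TLR4, the receptor of the S100A8 and S100A9 complex, was at 0.0, 4.6 and 0.0 in NC versus 0.0 in every siKIF15 library. EZR (ezrin, bound by S100P), MYH9 (nonmuscle myosin, bound by S100A4) and CACYBP (bound by S100A6) were abundant and did not pass, with log2 changes of -0.10, 0.06 and 0.06. The intervals were -0.24 to 0.04, -0.09 to 0.21 and -0.09 to 0.20. After correction for GC content and length all 3 passed, at -0.15, 0.12 and 0.14 (limma adjusted p = 0.015, 0.018 and 0.039). The sign of the change of MYH9 and of CACYBP depended on the scaling. FGF1, released with S100A13, was at 9.7, 5.2 and 0.9 in NC versus 0.0 in every siKIF15 library (adjusted p = 0.062), and it passed without NC 3 or with no filter on low values. The count of 2 partners called was 1 without NC 1, NC 2, siKIF15 1 or siKIF15 2 and 4 without siKIF15 3, and it was 11 (7 higher and 4 lower) after correction for GC content and length.

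Calcium-binding EF-hand genes outside the family gave 9 rises and 1 fall among 34 tested, with a median log2 change of 0.12. Over all genes tested, 9.66% passed as higher and 8.33% as lower. CALML5, a calmodulin-like protein of the epidermis, was listed at 0.0 in every NC library versus 11.5, 21.8 and 6.3 in siKIF15 (limma adjusted p = 0.0012). CALB2 (calretinin), a cytosolic calcium buffer, was at 0.0, 0.0 and 1.9 in NC versus 4.1, 18.7 and 14.4 in siKIF15 (adjusted p = 0.0083). EFHD1, a mitochondrial calcium sensor, rose 2.44-fold, and CALML4, a calmodulin-like protein, rose 1.41-fold. CAPNS1, the small subunit of calpains, rose 1.28-fold. NUCB2, a secreted calcium-binding protein, fell by 0.49 on the log2 scale, from values of 10396.1 to 10948.7 in NC to values of 6976.8 to 8862.7 in siKIF15. The call of CALB2 ended without NC 2 or siKIF15 2, at log2 changes of 2.76 and 2.62 in place of 3.00. That of CAPNS1 ended without NC 2 or siKIF15 1, at 0.34 and 0.35 in place of 0.36, and that of EFHD1 without siKIF15 1, at 1.22 in place of 1.29. Without an intensity trend the calls of CALB2, CAPNS1 and NUCB2 ended (adjusted p = 0.07, 0.086 and 0.072). CAPNS1 was at 0.24 after correction for GC content and length, and called. In place of 10 genes, 6 passed without NC 1, 4 without NC 2, 5 without siKIF15 1, 6 without siKIF15 2 and 16 without siKIF15 3.

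**Figure D4:**
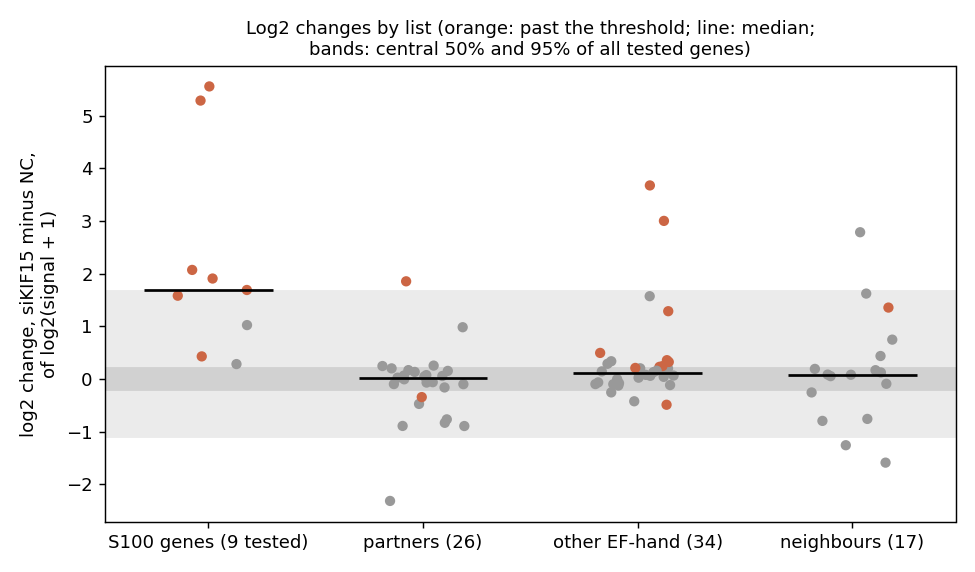
Log2 changes (y axis, siKIF15 minus NC on the log2(signal + 1) scale) of the tested genes of 4 lists, with genes past the threshold in orange, the median as a line and the central 50% and 95% of all 16548 tested genes as grey bands. The median was 1.69 for the 9 S100 genes and 0.01, 0.12 and 0.08 for the 26 partners, 34 other EF-hand genes and 17 neighbours.

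Along chromosome 1, the other genes between S100A10 and INTS3, the fifth coding gene past S100A1, gave 1 call among 17 tested. Over all genes tested, 18% passed in either direction. The neighbour called was IVL, which encodes involucrin, a precursor of the cornified envelope of skin cells. IVL was at 45, 30 and 29.3 in NC versus 95.9, 74.3 and 97.9 in siKIF15, with no overlap (2.57-fold, log2 change 1.36 ± 0.27, limma adjusted p = 0.0025). The median of the 17 was 0.08, and 8 further measured genes, 4 of them of the late cornified envelope (LCE) group, lay below the signal needed for a test. The 5 protein-coding genes past S100A1, up to INTS3, did not pass, with log2 changes of 0.05 for CHTOP, 0.17 for SNAPIN, 0.08 for ILF2, 0.12 for NPR1 and 0.19 for INTS3. Without siKIF15 3 the count was 4.

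**Figure D5:**
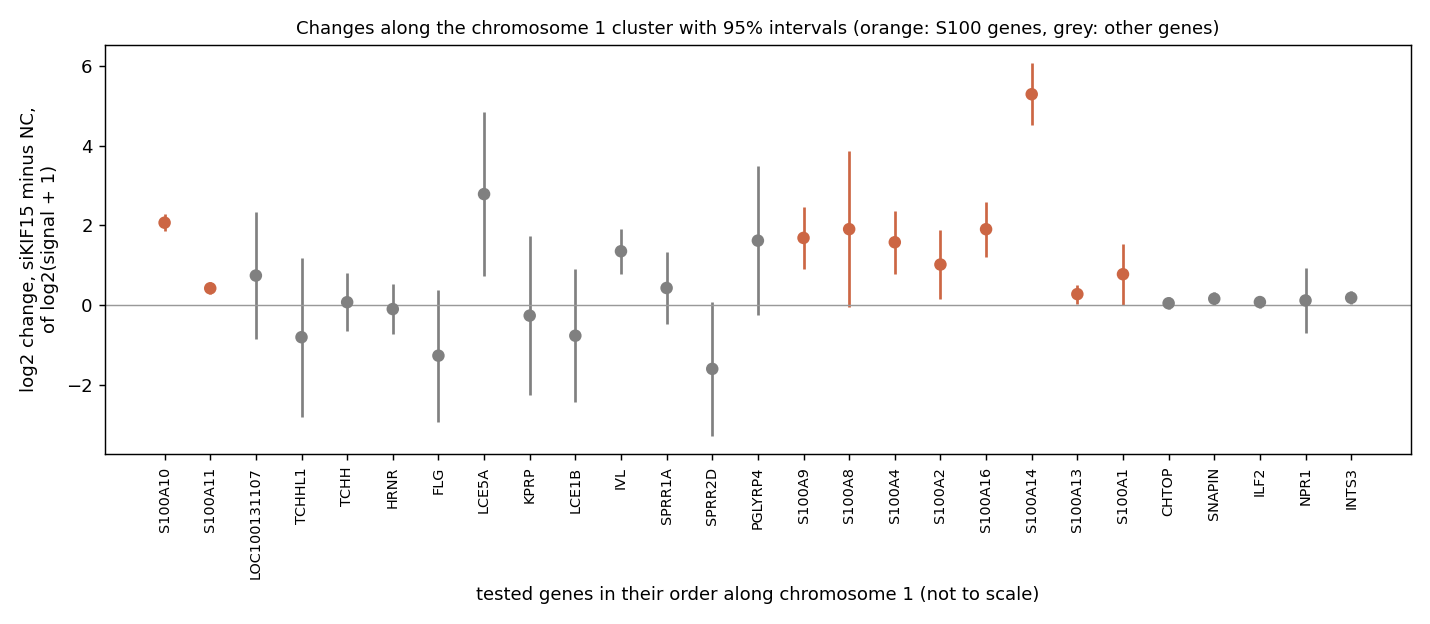
Log2 change with 95% interval (y axis, siKIF15 minus NC on the log2(signal + 1) scale) of the tested genes in their order along chromosome 1, with S100 genes in orange and other genes in grey, not to scale. S100A14 at 5.28 and S100A16 at 1.91 are next to each other, whereas S100A13 and S100A1 beyond them are at 0.28 and 0.78.

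Markers of other cells that carry S100 proteins were summed beside these changes. The 8 myeloid markers summed to 43.4 to 73.5 in NC and 56.4 to 70.8 in siKIF15, with PTPRC, the common leukocyte antigen, at 0.8, 0.1 and 3.8 in NC versus 0.0 in every siKIF15 library. FCGR3A, 1 of them, passed, at 3.5, 4.2 and 5.1 in siKIF15 and 0.0 in NC, but in none of the 6 fits that left out a library, and it has a near-identical copy. The 7 keratinocyte and basal markers summed to 8.2 to 20.7 in NC and 1961.7 to 2428.5 in siKIF15, most of it KRT16 at 1989.2, 2284.6 and 1855.1. Of the 6 tested, KRT6A, KRT14, KRT16 and KRT17 rose, genes with close copies whose shared reads are uncertain. TP63, a defining transcription factor of basal cells, was at 0.0, 2.3 and 0.0 in NC versus 0.0, 4.1 and 2.1 in siKIF15, and KRT5 and DSG3 were at 0.0 in every NC library and reached at most 5.2 and 2.1. Fibroblast markers, 8 genes, summed to 492.3 to 529.8 in NC and 463.3 to 514.7 in siKIF15, and 2 of them, FAP and PDGFRA, passed at values up to 7.2 and 7.3, with their calls kept in 2 and 1 of the 6 fits that left out a library. The part of other cells in the members' changes was not tested, and in bulk libraries a change in the number of cells of a type and in the RNA per cell cannot be told apart.

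The pattern of S100P over the 6 libraries was followed most closely by UBE3B and RARRES3 (Pearson r of 0.9996 each), then IFNL3, SBSN and OASL, among 11383 genes whose mean was 100 or more. UBE3B, a ubiquitin ligase gene, went from a mean of 4223 to 8164, and SBSN (suprabasin), a secreted protein of stratified epithelia, from 9.12 to 203. The mean of RARRES3 went from 97.7 in NC to 8835 in siKIF15, that of OASL from 285.6 to 80170, and that of IFNL3 from the floor to 443.7. Because 138 genes outside the family had an r above 0.99 and the 2 groups set most of this value, the order among them carries little information. Reads of IFNL3 may be shared with a near-identical copy.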

How the data were processed

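RNA was sequenced from 3 NC and 3 siKIF15 libraries, and groups and replicate numbers come from the titles. The authors deposited 1 signal value per gene symbol and library, already adjusted to a common library size as judged from the values; how was not stated. Per the submitters' processing notes, Bowtie 0.12.2 and mouse builds were used, although the organism is human; for the human build, annotation and counting tool, nothing is given in the sources used here. Since the values are not counts, the test planned for normalized values was used: limma 3.58.1 (R 4.3.3) with an intensity trend on log2(signal + 1), over the 16548 genes whose mean reached 1 in NC or siKIF15, in a single fit of the 6 libraries with no covariate, Benjamini-Hochberg adjustment and a threshold of 0.05. Log2 changes understate low genes. The fit was tested on simulated data. Folds are ratios of group means, given where both exceed 3.

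The members and lists were chosen with earlier results of these data known. Lists were named from textbook knowledge, except the neighbours, taken by RefSeq gene order. Named were all measured S100 genes, KIF15, the direct partners of members, and of each other list up to 6 called genes without overlap, plus genes in a count of 5 or fewer; other genes were named after their values were seen. Transcript length and GC content came from the longest coding transcript in GENCODE 29. RefSeq held 16436 of the symbols, and 598 more as synonyms; 25 lines carried calendar dates and stayed in the tests. Alternatives covered the pseudocount, the filter, the variance model, scaling, a correction of each library for GC content and length (lowess), a replicate block and leaving out each library.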

Additional observations from a re-analysis of the deposited data

How the results depend on the processing

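The 9 tested members had a log2 change above 0 in all 153 of their alternative fits, and 148 kept their side of the threshold. For many of these fits the sign was fixed in advance. Every siKIF15 value of these members lay above every NC value, so leaving out a library or changing the pseudocount cannot turn the sign. The filter, the variance model and the replicate block leave the log2 change unaltered. The 4 calls lost were those of S100A4 and S100A9 without siKIF15 1 and without an intensity trend, and the 1 gained was S100A13 without siKIF15 3. The number of members called was 7, with 5 under no intensity trend and 5 to 8 with 1 library left out. Genes called over the whole table were 2978, with 1070 under no intensity trend and 1184 to 5077 with 1 library left out. Scaling to equal totals gave 1204 higher and 1753 lower in place of 1599 and 1379. Other S100 genes called went from 0 to a range of 0 to 2 with 1 library left out. Partners called were 2, with 1 under no intensity trend, 11 after GC and length correction with or without the replicate block, and 1 to 4 with 1 library left out. Other EF-hand genes called were 10, with 4 under no intensity trend and 4 to 16 with 1 library left out. Neighbours called were 1, with 2 at a pseudocount of 5, 2 without the filter, 2 under no intensity trend, 2 after GC and length correction, 2 with the replicate block, 3 with both, and 1 to 4 with 1 library left out. A further 3 log2 changes that had not passed turned sign: ANXA2 (-1.25 to 0.23 with 1 library left out, the highest without NC 1), CACYBP (-0.004 at equal totals) and MYH9 (-0.092) after quantile normalization. The causes were not tested. Leaving out a library also leaves fewer samples, yet without siKIF15 3 the count over the whole table rose to 5077.

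Libraries with the same replicate number did not deviate together (r of 0.03, -0.14 and -0.00 for numbers 1, 2 and 3 over 11506 genes), and NC 1 correlated best with siKIF15 2 (0.25), so the numbers are taken only as names. With the replicate block, 3184 genes were called over the whole table, 7 members, 2 partners and 9 other EF-hand genes. Sequencing depth is unknown, which limits what can be said of genes near the floor, such as S100A6, S100A8 and ANXA2.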
